A study of Homo sapiens with 6 samples.

Results

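RNA from MDA-MB-231, a human breast cancer line of the triple-negative, mesenchymal type, was profiled here to follow 7 genes of the mevalonate pathway, ACAT2, HMGCS1, MVK, PMVK, MVD, IDI1 and FDPS, which encode enzymes upstream of squalene. They were chosen by their place in the pathway, with earlier results of these data known. Each had 1 transcript cluster (the probes that an array groups into a transcript) paired with its symbol alone. They are 7 of 22465 genes tested. The comparison asked how the knockdown of DAXX, a histone chaperone and transcription regulator, moved each step of the pathway.

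The cells carried lentivirus with a hairpin against the DAXX coding sequence (shDAXX) or with a scrambled hairpin (shControl), and both were selected with 2 µg/ml puromycin and grown for 24 hours in complete DMEM. The study's methods give 1 DAXX hairpin, driven by the human H1 promoter, and do not describe single-cell cloning. Each group had 3 cultures and 3 Affymetrix arrays, each made from 200 ng of total RNA, and the submitters call the cultures biological replicates. All values are RMA signals on the log2 scale, so that a difference of 1 is a doubling.

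The mevalonate pathway builds isoprenoids from acetyl-CoA. Its diphosphate products feed cholesterol, the prenyl anchors of small GTPases, ubiquinone and dolichol. The transcription factor SREBP2, released from the endoplasmic reticulum when sterols are scarce, is known to activate the genes of the pathway together with the cofactors NF-Y and Sp1.

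RefSeq promoter windows of GRCh38.p14, from 250 bases before to 50 bases after an annotated start, were matched for 6 of the 7 enzymes, with 9 windows among them, and ACAT2 was not matched. They were searched on both strands for CCAAT, the NF-Y box, which is ATTGG when read on the other strand. The box was present in 6 of the 9 windows, against 34.6% of all 35116 promoter windows searched. By gene it was present in 5 of the 6 enzymes, for which no share over all genes was counted. HMGCS1 and IDI1 had more than 1 window each, some of them overlapping, so their windows are not separate cases. The windows of HMGCS1, MVK, PMVK and MVD are printed because they cover the strongest and the weakest change as well as the highest and the lowest number of boxes. Boxes are in capitals, and the sequences run 5′ to 3′ on the strand of the gene.
HMGCS1, chr5:43313363-43313662, minus strand: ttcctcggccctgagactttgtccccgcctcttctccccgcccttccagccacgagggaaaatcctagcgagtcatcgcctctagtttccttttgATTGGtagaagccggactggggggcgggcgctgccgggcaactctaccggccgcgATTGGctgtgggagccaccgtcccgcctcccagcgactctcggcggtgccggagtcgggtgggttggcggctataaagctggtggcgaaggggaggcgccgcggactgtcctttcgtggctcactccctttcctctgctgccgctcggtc
MVK, chr12:109573544-109573843, plus strand: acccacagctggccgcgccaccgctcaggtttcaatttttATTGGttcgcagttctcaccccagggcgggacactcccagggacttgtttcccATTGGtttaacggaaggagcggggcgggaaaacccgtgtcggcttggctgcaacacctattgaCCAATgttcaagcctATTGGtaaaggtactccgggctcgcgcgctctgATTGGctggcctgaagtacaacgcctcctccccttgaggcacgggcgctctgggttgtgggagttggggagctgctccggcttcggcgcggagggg
PMVK, chr1:154936670-154936969, minus strand: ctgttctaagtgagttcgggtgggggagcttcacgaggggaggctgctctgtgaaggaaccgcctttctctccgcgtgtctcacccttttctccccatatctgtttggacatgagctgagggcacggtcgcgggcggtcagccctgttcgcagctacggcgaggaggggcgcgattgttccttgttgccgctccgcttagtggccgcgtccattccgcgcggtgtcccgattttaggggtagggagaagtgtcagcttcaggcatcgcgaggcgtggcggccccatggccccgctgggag
MVD, chr16:88663042-88663341, minus strand: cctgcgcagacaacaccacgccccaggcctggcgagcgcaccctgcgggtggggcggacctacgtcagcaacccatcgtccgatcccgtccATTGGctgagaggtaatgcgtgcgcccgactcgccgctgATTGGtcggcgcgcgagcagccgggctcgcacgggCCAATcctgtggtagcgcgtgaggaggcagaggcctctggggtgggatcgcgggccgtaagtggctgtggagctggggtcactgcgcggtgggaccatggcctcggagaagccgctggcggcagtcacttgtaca

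The HMGCS1 window held 2 boxes, which began 155 and 100 bases before the start. A second HMGCS1 window, of a start further downstream, held 0. MVD and FDPS held 3 boxes each, a number reached by 3.26% of all windows. MVK held 5, reached by 0.359% of windows, while PMVK held 0. IDI1 had 3 windows with 0, 3 and 2 boxes, and 2 boxes of its second window overlapped. The GC box GGGCGG, a Sp1 motif, was present in 9 of the 9 windows and in 45% of all windows. The letters TCACNCCAC, a core of the sterol regulatory element, were in 0 of the 9 windows and in 1.13% of all windows, and the E-box CACGTG was in 0 of the 9 and in 7.26%. A match here is a string of letters, not evidence of a bound factor. Likewise, the lack of 1 exact string is not evidence that a site is absent.

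The markers of the line itself matched the label. VIM, CD44, EGFR and KRT18 lay at percentile 96.4 or above of mean signal, with VIM at 15.72 to 16.06, and the receptor genes ESR1 and PGR and the epithelial cadherin gene CDH1 lay at or below 4.84, against a median of 4.96 over transcript clusters. Of 5 leukocyte genes, CD3E, MS4A1, CSF1R and PTPRC were at 5.50 or below, while CD68, a lysosomal protein gene also known from cancer lines, was at 13.50 to 14.04 and fell by 0.36 on the log2 scale (limma adjusted p = 0.038). The 5 fibroblast or endothelial genes were at 6.48 or below, with CDH5 the highest at 5.94 to 6.48. Besides CD68, the group means of PTPRC, CD3E, COL1A1, PDGFRB, PECAM1 and CDH5 lay above the 4.96 median. Those of MS4A1, CSF1R and VWF lay below it. Of the leukocyte markers 2 were called lower and 0 higher. Of the fibroblast or endothelial markers 0 were called lower and 1 higher, which was CDH5. Among all genes tested 5.6% were called lower and 4.3% higher. DAXX fell in shDAXX from signals of 7.49, 7.48 and 7.43 to 6.69, 6.67 and 6.61 (log2 fold change -0.81, SE 0.060, adjusted p = 4.9e-04 by limma). Array signal is taken from whole cultures, so less RNA in every cell and loss in some of the cells cannot be told apart.

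In shDAXX cells 5 of the 7 mevalonate enzymes fell, 0 rose and 2 did not pass the test. Over all genes, limma called 5.6% lower and 4.3% higher at an adjusted p under 0.05, so that 56.5% of the calls were lower, or 43.7% after quantile normalization. HMGCS1 fell the most, to 14.1% of its control signal, IDI1 and ACAT2 fell to 44.1% and 45.9%, and MVD and FDPS to 60.0% and 64.9%. The median log2 fold change of the 7 enzymes was -0.74, and that of all genes was 0.007. Every shDAXX array lay below every shControl array for 6 of the 7 enzymes, as it did for 14.7% of all genes.

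**Figure D1:**
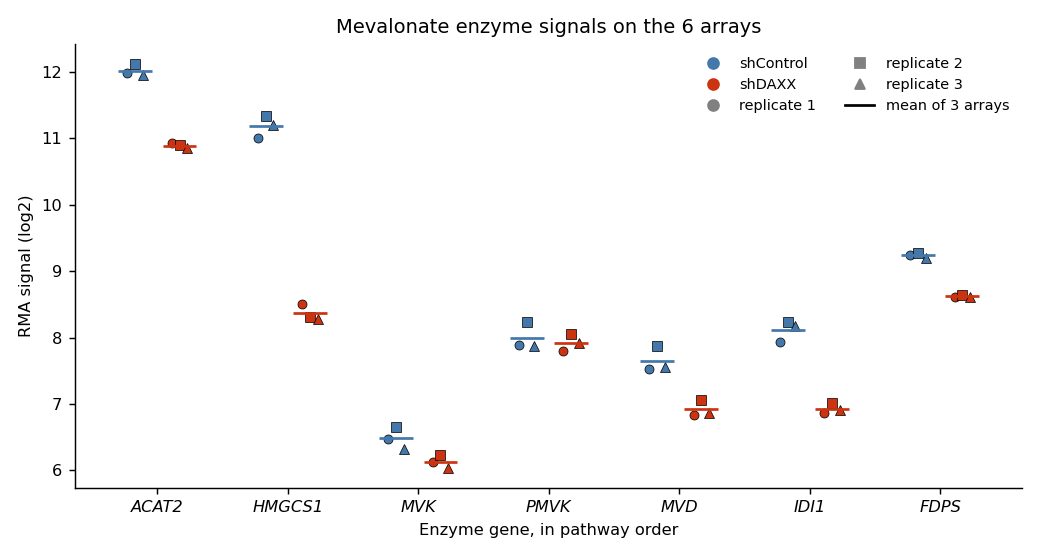
RMA signals (log2, y axis) of the 7 enzyme genes in pathway order (x axis), with 1 point per array, marker shape for the replicate number, and horizontal lines at the means of 3 arrays. The groups are separate for all genes but PMVK, and HMGCS1 shows the widest gap, from 11.01 and above in shControl to 8.50 and below in shDAXX. Signals of different genes come from different probes and are not comparable in height.

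At the entry to the pathway, ACAT2, the cytosolic thiolase that joins a pair of acetyl-CoA molecules, had signals of 11.98, 12.12 and 11.95 in shControl and 10.93, 10.90 and 10.85 in shDAXX. The groups were more than 1 log2 unit apart at their nearest arrays. The log2 fold change was -1.12 (SE 0.070, 95% confidence interval -1.29 to -0.96, limma adjusted p = 2.3e-04), or 2.18-fold. ACAT1, the mitochondrial thiolase of ketone body and isoleucine metabolism, had a log2 fold change of -0.04 (95% confidence interval -0.20 to 0.13, limma adjusted p = 0.815), and its groups overlapped. Its value was 0.01 after quantile normalization and also without shControl replicate 2.

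HMGCS1, the cytosolic synthase that adds a further acetyl-CoA to give HMG-CoA, had signals of 11.01, 11.34 and 11.21 in shControl. In shDAXX they were 8.50, 8.31 and 8.28, so that the highest knockdown array was far below the lowest control array. The log2 fold change was -2.82 (SE 0.11, 95% confidence interval -3.07 to -2.57, limma adjusted p = 2.5e-05), or 7.08-fold. Only 6 of the 22465 genes had a lower fold change.

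The kinases that follow did not pass the test. MVK phosphorylates mevalonate, and its signals were 6.47, 6.65 and 6.32 in shControl and 6.12, 6.23 and 6.04 in shDAXX. These groups did not overlap, but their nearest arrays were separated by less than the range within either group. The log2 fold change of -0.35 (SE 0.10, 95% confidence interval -0.59 to -0.11) did not pass over all genes (limma adjusted p = 0.080). It passed when dim genes were left out (limma adjusted p = 0.044), and in the other alternatives the adjusted p ran from 0.053 upwards.

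PMVK, the kinase that turns phosphomevalonate into mevalonate diphosphate, had signals of 7.89, 8.23 and 7.87 in shControl and 7.80, 8.05 and 7.92 in shDAXX. The groups overlapped. Its log2 fold change was -0.07 (SE 0.12, 95% confidence interval -0.35 to 0.21, limma adjusted p = 0.777), and without shControl replicate 2 the value was 0.04. A change within that interval was not detectable with 3 arrays per group.

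The decarboxylase gene fell. MVD, the decarboxylase that makes isopentenyl diphosphate, had signals of 7.52, 7.88 and 7.56 in shControl and 6.83, 7.06 and 6.86 in shDAXX. All knockdown arrays were below all control arrays, although replicate 2 was the highest in both groups. MVD fell by 0.74 on the log2 scale (SE 0.12, 95% confidence interval -1.01 to -0.46, limma adjusted p = 0.010). The methods' t-test gave an adjusted p of 0.066, and a test against a minimum fold change of 1.3 gave 0.348.

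IDI1, the isomerase that converts isopentenyl to dimethylallyl diphosphate, had signals of 7.93, 8.23 and 8.17 in shControl and 6.86, 7.02 and 6.91 in shDAXX. The groups were again well separated. The log2 fold change was -1.18 (SE 0.096, 95% confidence interval -1.41 to -0.95, limma adjusted p = 7.3e-04), or 2.27-fold. IDI2, a neighbouring isomerase gene, was dim on every array, at 4.07 to 4.46, and its log2 fold change was 0.18 (limma adjusted p = 0.315).

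FDPS, the synthase that condenses these units to farnesyl diphosphate, was the least variable of the 7 genes. Its signals were 9.25, 9.28 and 9.20 in shControl and 8.61, 8.64 and 8.61 in shDAXX. It fell by 0.62 on the log2 scale (SE 0.059, 95% confidence interval -0.76 to -0.48, limma adjusted p = 0.0012), or 1.54-fold. Against a minimum fold change of 1.3 the adjusted p was 0.112.

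**Figure D2:**
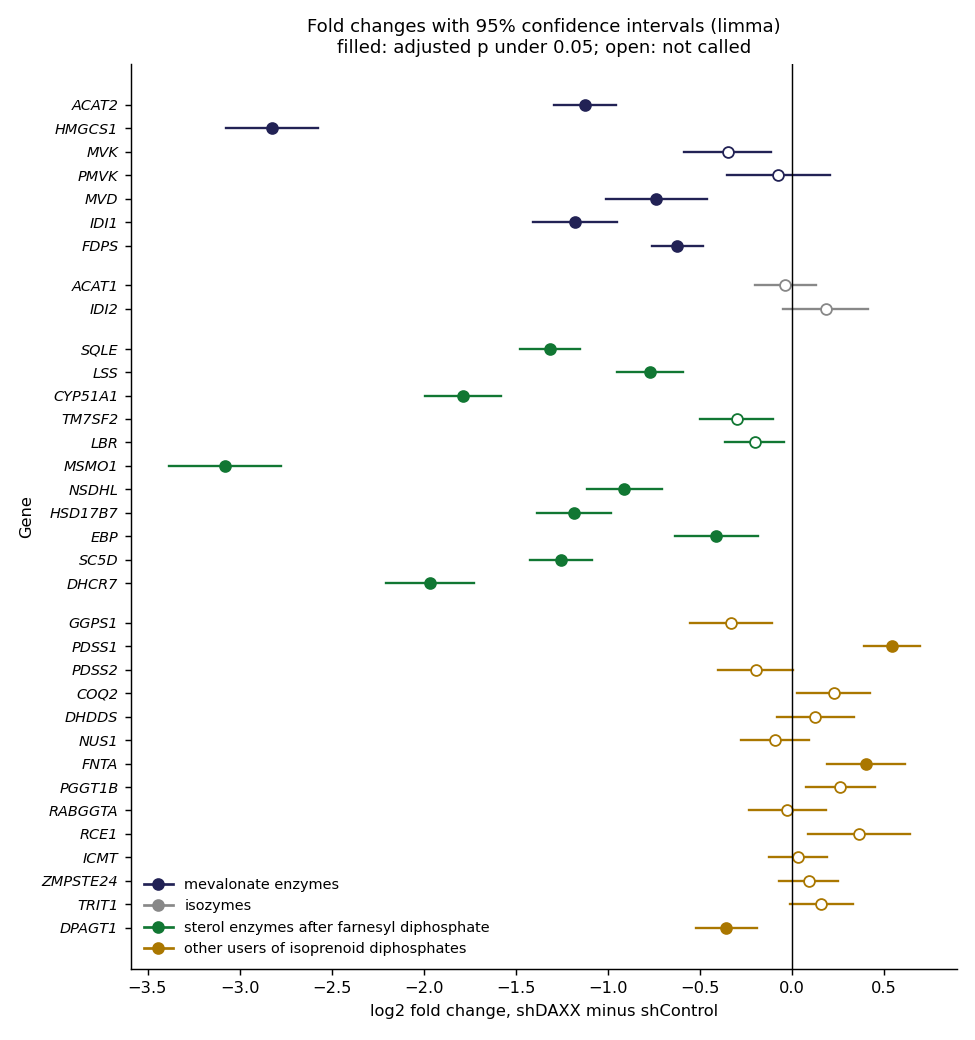
Log2 fold changes, shDAXX minus shControl (x axis), with 95% confidence intervals for the mevalonate enzymes, their isozymes, the sterol enzymes after farnesyl diphosphate and the other users of isoprenoid diphosphates (y axis), without the regulators. Filled points passed limma at an adjusted p under 0.05 and open points did not. HMGCS1 at -2.82 and MSMO1 at -3.08 lie farthest to the left among the genes drawn, and MVK and PMVK are open. The other users of isoprenoid diphosphates, a list that also takes in enzymes acting on their products, lie on both sides of 0, from -0.36 to 0.54.

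Fold changes were also set against each other within arrays. Because a difference between 2 genes on the same array is unaffected by any scaling of that whole array, all 21 pairs were compared in this way, and the 2 groups did not overlap for 19 of them (90.5%), as for 30% of all pairs of genes tested. An exact two-sided permutation test with 3 arrays against 3 cannot go below 0.10. Those 19 pairs had this value (0.11 after Benjamini-Hochberg adjustment over the 21). No pair could pass, so the test cannot decide whether the enzymes differed in the size of their change. In limma, the confidence interval of the HMGCS1 log2 fold change, -3.07 to -2.57, lay below that of each other mevalonate enzyme. The nearest was that of IDI1, at -1.41 to -0.95. The HMGCS1 signal minus the ACAT2 signal moved from -0.83 ± 0.12 in shControl to -2.53 ± 0.087 in shDAXX (SD, n = 3). MVD minus PMVK moved from -0.34 ± 0.031 to -1.01 ± 0.047. The pairs that overlapped were IDI1 with ACAT2 (a change of -0.06, exact p = 0.60) and FDPS with MVD (a change of 0.11, exact p = 0.50). Signals of different probes need not respond equally to the same change in RNA.

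Within groups, the enzymes tended to be high on the same arrays. On shControl replicate 2 all 7 genes were above their group mean, by a median of 0.15 on the log2 scale, where the median deviation of all genes tested was 0.007. On shDAXX replicate 2, 6 of the 7 were above their group mean, with ACAT2 close to it and HMGCS1 the exception, and on shDAXX replicate 3 none was. PMVK and MVD had the widest range among the shControl arrays, 0.36 each, and FDPS the narrowest, 0.08. Without shControl replicate 2 the median log2 fold change of the 7 enzymes was -0.62, and 5 remained called lower, at adjusted p-values up to 0.021 by limma.

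**Figure D3:**
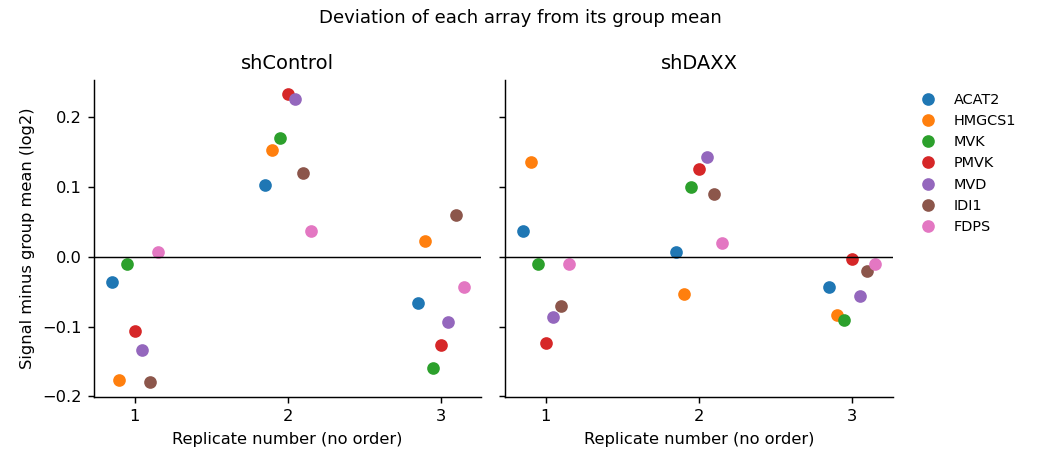
Deviation of each array from the mean of its own group (log2, y axis) for the 7 enzymes, by replicate number (x axis, which has no order) and group. All 7 points of shControl replicate 2 lie above 0, between 0.04 and 0.23, while HMGCS1 lies below 0 on shDAXX replicate 2.

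Enzymes that carry farnesyl diphosphate on to cholesterol were also lower. Of 11 measured, 9 fell, 0 rose and 2 did not pass, beside 5.6% of all genes called lower and 4.3% higher. The median log2 fold change of the 11 was -1.18. The list ran from MSMO1, the sterol methyl oxidase (-3.08, SE 0.13), to LBR, a sterol reductase that is also a lamin receptor (-0.20, limma adjusted p = 0.123).

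Most other users of isoprenoid diphosphates did not pass the test. Their list also takes in enzymes acting on their products (DPAGT1, RCE1, ICMT and ZMPSTE24). Of 14 measured genes outside sterol synthesis, 11 were not called, 1 fell and 2 rose, beside 5.6% and 4.3% of all genes. With so few called genes, these counts are not read as a result about the list. The median log2 fold change of the 14 was 0.11. DPAGT1, which loads dolichol phosphate for protein glycosylation, fell by 0.36 (SE 0.070, limma adjusted p = 0.023). PDSS1, a subunit of the synthase for the ubiquinone side chain, rose by 0.54 (SE 0.064, limma adjusted p = 0.0031), and FNTA, the shared subunit of farnesyl and geranylgeranyl transferases, rose by 0.40 (SE 0.089, limma adjusted p = 0.035). GGPS1, which extends farnesyl to geranylgeranyl diphosphate directly after FDPS, had a log2 fold change of -0.33 (limma adjusted p = 0.076), with its highest shDAXX array at 7.75 and its lowest shControl array at 7.91. The difference between these lists was not tested.

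Of 7 genes that control the pathway, 3 fell and 0 rose, beside 5.6% and 4.3% of all genes. INSIG1, the sterol-regulated protein that retains SREBP precursors, and SREBF2, which encodes SREBP2, had log2 fold changes of -3.56 and -1.53. SREBF1, which encodes SREBP1, fell by 0.73 (limma adjusted p = 0.0023), and MBTPS1, a protease that cleaves the precursors, had the highest value, 0.29 (limma adjusted p = 0.083).

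The genes around each enzyme on its chromosome were examined as well. The 18 to 20 nearest measured genes of each enzyme had median log2 fold changes of -0.08 to 0.06, and at most 2 of them were called lower. Among genes directly beside an enzyme, KCNN3 next to PMVK rose by 0.66 (limma adjusted p = 0.0010) and WDR37 next to IDI1 fell by 0.40 (limma adjusted p = 0.013) on the log2 scale. PMVK and FDPS lie on the same chromosome with 28 measured genes between them, and the median of those genes was -0.08, with 1 called lower and 0 higher. Around MVK, 5 of 20 neighbours were called higher and 1 lower, beside 4.3% and 5.6% of all genes. The lower one was MMAB, a cobalamin adenosyltransferase gene that runs in the opposite direction from MVK and shares 211 bases of its promoter window, the NF-Y boxes included. MMAB signals were 7.32, 7.62 and 7.38 in shControl and 7.05, 7.0 and 6.91 in shDAXX, with no overlap. It fell by 0.45 on the log2 scale (SE 0.094, limma adjusted p = 0.028), a call that was kept in 8 of 17 alternatives and lost in the other 9, among them those without shControl replicate 2 or 3 or any 1 shDAXX array (adjusted p 0.054 to 0.095).

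The genes with profiles nearest to each fallen enzyme lay outside the fixed gene lists, except for HSD17B7. Likeness was the root mean square difference over the 6 arrays after centring each gene on its shControl mean. Nearest to HMGCS1 was VAT1L, at 0.15 log2 units, followed by GABRA3 and TMEM154. Nearest to ACAT2 was ABCA1, a cholesterol exporter gene, at 0.049, and nearest to IDI1 were PLXNA2 at 0.042 and HSD17B7, a sterol ketoreductase gene, at 0.047. MVD was nearest to VPS25 at 0.031, and FDPS to SLC39A10, a zinc importer gene, at 0.020. This measure takes in the size of a change as well as its shape over the arrays.

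**Figure D4:**
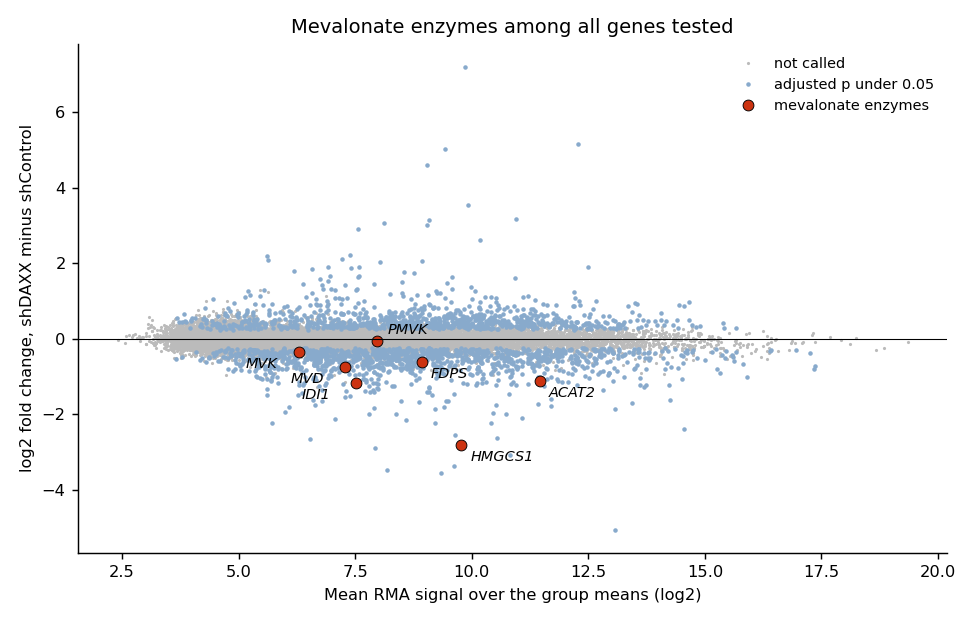
Log2 fold change, shDAXX minus shControl (y axis), against the mean log2 signal (x axis) for 22465 genes, with called genes in blue, others in grey and the 7 mevalonate enzymes in red. HMGCS1 at -2.82 sits near the lower edge of the cloud, and PMVK at -0.07 lies within the band of genes that were not called.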

How the data were processed

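Total RNA from 6 MDA-MB-231 cultures (3 shControl, 3 shDAXX) was hybridised to Affymetrix Human Transcriptome Arrays. The deposited values are log2 signals, which the authors made from array image files by RMA. Affymetrix Expression Console is the tool in the submitters' processing notes, with no version given in the sources used here. The log base was read from the values of transcript clusters, 2.13 to 19.52 (array medians 4.91 to 5.02). Arrays of different dates were corrected with ComBat in the study. No source used here says whether this touched the present arrays, in which case the spread within groups may be smaller than in uncorrected values. RMA compresses differences near background.

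Of 67528 transcript clusters, 23781 had 1 symbol in the platform annotation. The brightest cluster per gene was kept, which left 22465 genes. Groups were compared with limma 3.58.1 in R 4.3.3 (lmFit, eBayes, no covariates, two-sided, Benjamini-Hochberg over all genes, threshold 0.05), and the fit was tested on simulated data. Named genes were the 7 enzymes, DAXX, MMAB, the nearest profiles of called enzymes, marker genes, and examples from lists of isozymes, sterol enzymes, other isoprenoid users and regulators. Of the sterol enzymes the extremes are named, of the other isoprenoid users the called genes and GGPS1, and of the regulators the called genes and the highest. GGPS1, KCNN3, WDR37 and the called genes were singled out after their values were seen. The members and lists were chosen with earlier results of these data known. The number of arrays limits the precision. The alternatives were a dim filter, every cluster, averaged clusters per gene, equal medians, quantile normalization, a replicate block, trend and robust variance, array weights, the methods' t-test, the methods' threshold, a minimum fold change and leaving out each array.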

Additional observations from a re-analysis of the deposited data

How the results depend on the processing

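HMGCS1, ACAT2 and IDI1 were called lower in all 17 alternatives, FDPS in 16 and MVD in 15. The number of enzymes called lower was 3 when limma tested against a minimum fold change of 1.3 (FDPS and MVD lost). It was 4 by the methods' t-test after adjustment (MVD lost) and 5 by the methods' own threshold. Without any 1 array the number was 5. MVK was called only with the dim filter. PMVK ran from -0.137 to 0.0433 when arrays were left out. ACAT1 ran from -0.0633 to 0.0117 without 1 array and was 0.0081 after quantile normalization. Genes called over the whole table (1257 lower, 967 higher) numbered 494 and 308 when every transcript cluster was tested and 196 and 129 against the minimum fold change. The methods' t-test called 811 lower and 707 higher after adjustment, and its unadjusted p under 0.05 with a fold change over 1.3 gave 1034 and 734. Equal array medians gave 617 higher. Leaving out 1 array gave 722 to 857 lower and 515 to 609 higher. The higher count then fell to 550, 609 and 515 for the 3 shControl arrays in turn and to 601, 574 and 561 for the 3 shDAXX arrays, and the lower count to 810, 722 and 857 and to 766, 850 and 736. Of the called genes 56.5% were lower, and 43.7% after quantile normalization.

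The labels tie same-numbered arrays by the number alone, and whether these were handled together is not given. Correlations of their deviations were -0.09, 0.22 and 0.08, and those of arrays with different numbers ran from -0.22 to 0.13. With the replicate block, 868 genes were lower and 606 higher, the same 5 enzymes were called lower, and MMAB was not called (adjusted p 0.060). Groups of 3 arrays were not searched for outlying values.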
